A study of Meriones unguiculatus and Mus musculus with 2 samples.

Results

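Mitochondrial ribosomal protein genes were taken from a deposited table of 41214 mouse genes by their symbol, which had to be Mrpl or Mrps, then a number and at most 1 letter. The rule found 77 genes, 48 named for the large subunit and 29 for the small subunit. Expression levels did not enter the choice. All 77 had a value in the ICR mouse library and 71 had a value in the gerbil library, 45 large and 26 small.

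The mitochondrial ribosome translates the few messenger RNAs of the mitochondrial genome, which encode core subunits of the respiratory chain and of ATP synthase. Its proteins are all encoded in the nucleus, made in the cytosol and imported. Some have a counterpart in bacterial ribosomes, and the others are specific to mitochondria.

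RNA sequencing profiled wounded skin 3 days after wounding in a Mongolian gerbil (Meriones unguiculatus) and in an ICR mouse, an outbred laboratory stock. No age or sex of the animals was used here. The labels give the tissue as dermis, and each species had 1 library, so no value below has a replicate check, no test was run and no p-value is given. Values are FPKM, which divides the fragments of a gene by its transcript length and by the size of the library, so levels of different genes can be set side by side within a library. Depth is unknown, because no read counts were used.

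A gerbil value was taken to belong to a sequence assembled from gerbil reads and matched to a mouse gene, with the expectation value of that match, where 0 is the strongest. The header does not spell this out. A difference is the gerbil value less the ICR value, both as log2(FPKM + 1). Folds are on the same FPKM + 1 scale, which understates the differences of low genes.

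Markers of the tissue and of other cells differed in both directions. Of 6 dermal fibroblast genes 5 were higher in ICR (median difference −0.99), with Dcn at 482 and 162 FPKM and Col1a1 at 567 and 203, and Col1a2 was higher in gerbil, at 502 and 1079. Col3a1 stood at 1794 and 1.37 FPKM on a weak match (9e-14). Of 3 measured myeloid genes, Csf1r was at 77.6 and 111 FPKM, Emr1 at 35.7 and 13.7 and Cxcr2 at 67.0 and 64.03, while S100a8, S100a9 and Cd68 had ICR values only. The keratinocyte genes Krt1 and Krt5 were high in both libraries although the label says dermis, Krt1 at 2471 and 2469 FPKM and Krt5 at 4284 and 11792.5. Krt10 was at 1107 and 268 FPKM, Trp63 at 57.6 and 1.59, and Krt14 at 18470.5 in gerbil with 0 listed for ICR. Other genes also carried these gerbil values, 8 for Krt5, 4 for Krt14, 5 for Krt10 and 31 for Trp63, but none for Krt1. The matches of Krt10 and Trp63 stood at 4e-83 and 5e-126. Of 5 measured genes of skeletal muscle, a tissue rich in mitochondria, 4 were higher in gerbil, but Myh1 and Myh4 carried the same gerbil value. Muscle levels ran from 5.42 to 70.4 FPKM in ICR and from 15.6 to 177 in gerbil. Of the 2 brown fat genes, Ucp1 was listed at 0 in ICR and had no gerbil match, and Cidea was at 17.5 and 13.4 FPKM. The part of these cell types in the values below was not tested, and in bulk tissue fewer cells of a type and less RNA per cell cannot be told apart.

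The 2 subunits had similar levels in each library. The median large subunit gene was at 25.8 FPKM in ICR (48 genes) and 24.0 in gerbil (45 genes). The median small subunit gene was at 23.4 FPKM in ICR (29 genes) and 25.7 in gerbil (26 genes). In ICR 65 of 77 members reached 10 FPKM, and 61 of them lay between 10 and 100. In gerbil 62 of 71 lay between 10 and 100, and none was above 100.

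The median difference was 0.08 over the 71 members with both values (SD across genes 1.45, range −3.95 to 4.08), 0.05 in the large subunit and 0.22 in the small subunit. The 95% intervals of these medians were −0.35 to 0.26 for the large and −0.24 to 0.52 for the small subunit, and they overlapped. They come from the ordered members, treat genes as independent and cover no variation between animals. For comparison, the median was 0.30 over 14084 measured protein-coding symbols and 0.87 over all 20089 measured symbols. With gerbil values lowered by that 0.87, the members' median was −0.79, and with a shift of 0.38 from a trimmed mean of log ratios it was −0.30, so the sign of the family median depends on the scaling. As deposited, 39 of the 71 members were higher in gerbil and 32 in ICR. Of 14084 measured protein-coding symbols 8399 were higher in gerbil and 5684 in ICR, and of all 20089 measured symbols 14146 and 5941.

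Within 2-fold of each other lay 44 of 71 members (62.0%), against 54.4% of measured protein-coding symbols. The shares were 60.0% in the large and 65.4% in the small subunit. At 2-fold or more, 15 members were higher in gerbil, against 28.2% of protein-coding and 47.2% of all measured symbols, and 12 were higher in ICR, against 17.4% and 12.9%. At 4-fold or more, 5 members were higher in gerbil, against 9.76% of protein-coding and 25.9% of all measured symbols. At 4-fold or more, 8 were higher in ICR, against 7.43% of protein-coding and 5.56% of all symbols. As shares of the members these are 7.04% and 11.3%, which lie near the protein-coding background.

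**Figure D1:**
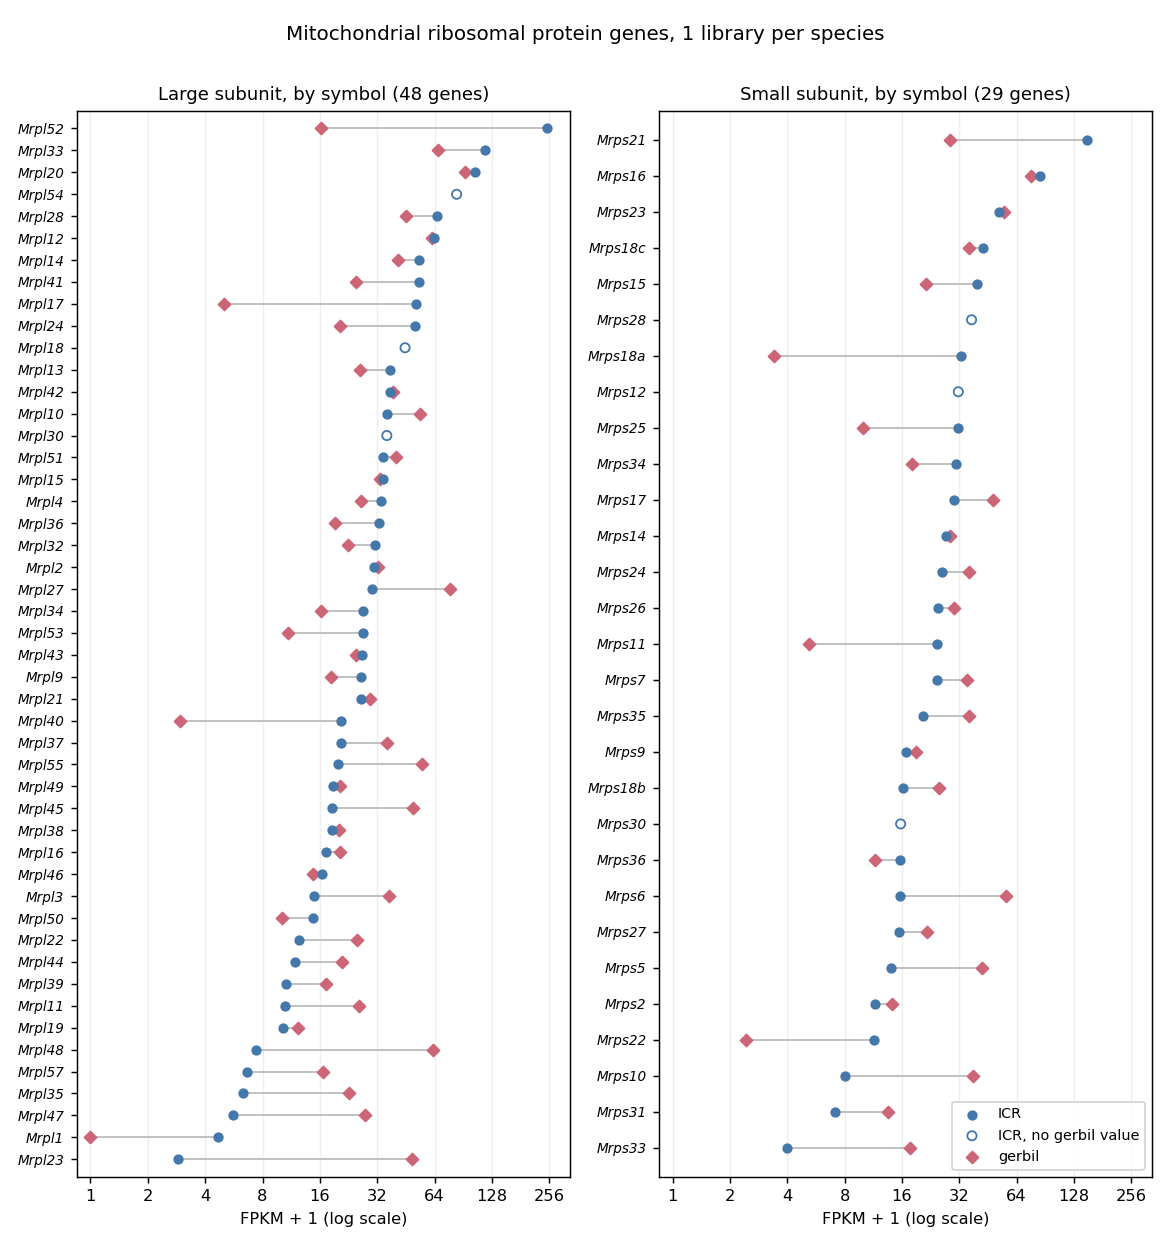
FPKM + 1 on a log axis for each of the 77 genes, 1 line per gene, ordered by ICR level within the large subunit (left) and the small subunit (right); filled circles are ICR, diamonds are gerbil, and open circles are the 6 genes with no gerbil value. The 13 genes that are 4-fold apart have the longest lines, among them Mrpl52 (249 and 15.2 FPKM) at the top of the ICR order and Mrpl23 (1.87 and 47.7) at the bottom.

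Several proteins line the exit of the peptide tunnel, as their bacterial counterparts do. Mrpl23 (uL23m, chr7:142532799-142540747, GRCm38) measured 1.87 FPKM in ICR against 47.7 in gerbil, 17.0-fold higher in gerbil. It was the lowest member in ICR and among the higher ones in gerbil. Mrpl47 (uL29m) was at 4.58 and 26.6 FPKM, 4.95-fold higher in gerbil, and 2 pseudogene copies carried its gerbil value. Mrpl17 (bL17m) went the other way, at 49.8 FPKM in ICR and 4.04 in gerbil, 10.1-fold higher in ICR. Its match stood at 2e-103, and 20 other genes carried its gerbil value. Mrpl24 (uL24m) was at 49.8 and 19.3 FPKM, and Mrpl22 (uL22m) at 11.4 and 24.0.

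Mrpl23 and 2 other members that were 4-fold higher in gerbil, Mrpl48 and Mrps33, each had a processed pseudogene in the table with a higher ICR value than the gene itself. The coding sequences below, from GENCODE M21 transcripts on GRCm38, are shown because they show how closely gene and copy match. Each line is a 120-base stretch of the coding strand, 5′ to 3′, and capitals mark bases that differ between the pair.
Mrpl23: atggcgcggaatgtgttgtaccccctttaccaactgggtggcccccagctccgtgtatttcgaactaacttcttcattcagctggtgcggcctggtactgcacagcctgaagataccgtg
Mrpl23-ps1: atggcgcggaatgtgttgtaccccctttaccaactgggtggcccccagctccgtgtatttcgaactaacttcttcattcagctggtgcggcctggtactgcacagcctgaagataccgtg
Mrpl48: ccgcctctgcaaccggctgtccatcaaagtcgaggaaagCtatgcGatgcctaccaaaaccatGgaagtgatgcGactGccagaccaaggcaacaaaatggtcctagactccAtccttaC
Mrpl48-ps: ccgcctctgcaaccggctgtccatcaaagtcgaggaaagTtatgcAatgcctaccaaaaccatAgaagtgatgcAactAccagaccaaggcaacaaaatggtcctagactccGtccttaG
Mrps33: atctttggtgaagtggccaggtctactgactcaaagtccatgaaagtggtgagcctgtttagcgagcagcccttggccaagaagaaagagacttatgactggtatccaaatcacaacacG
AC127338.1: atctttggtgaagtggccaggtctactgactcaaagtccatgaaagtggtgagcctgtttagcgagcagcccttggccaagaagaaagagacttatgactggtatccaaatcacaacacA

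The Mrpl23 pair was identical over all 438 coding bases. Mrpl23-ps1, on chromosome 2, was at 55.2 FPKM in ICR and carried the same gerbil value as Mrpl23, 47.7. Gene and copy together reached 57.1 FPKM in ICR, so the difference of 4.08 became −0.26 when they were summed. Reads from identical sequences cannot be told apart, and the ICR values of Mrpl23 and its copy are uncertain for that reason.

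The Mrps33 copy AC127338.1, on chromosome 7, differed at 1 of 318 bases and was at 16.9 FPKM in ICR, against 2.99 for Mrps33 itself. Mrps33 encodes a small subunit protein specific to mitochondria, and its gerbil value was 16.6, which the copy also carried. The sum in ICR was 19.9, and the difference of 2.14 became −0.24. For Mrpl48 the copy on chromosome 4 differed at 12 of 633 bases, was at 15.7 FPKM in ICR and had no gerbil value. The sum of 22.1 FPKM left a difference of 1.44, under 4-fold, in place of 3.08.

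In all, 30 members had 54 pseudogene copies in the table. Of these, 9 reached 1 FPKM in ICR, and their identity to the coding sequence ran from 96.2% to 100%, with a median of 98.9%. The 44 copies under 1 FPKM had a median identity of 90.0%, and 3 of them were at 96.2% or more. The remaining copy had no ICR value. In ICR 40 copies were listed at 0, whereas 30 of the 54 carried the gerbil value of their gene. The other copies above 1 FPKM stayed below their gene, as Gm14017 did at 10.6 FPKM beside Mrpl51 at 33.4. When the copies were added to ICR, 2 members remained 4-fold higher in gerbil, Mrpl47 and Mrps10, and the same 8 members were 4-fold higher in ICR.

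**Figure D2:**
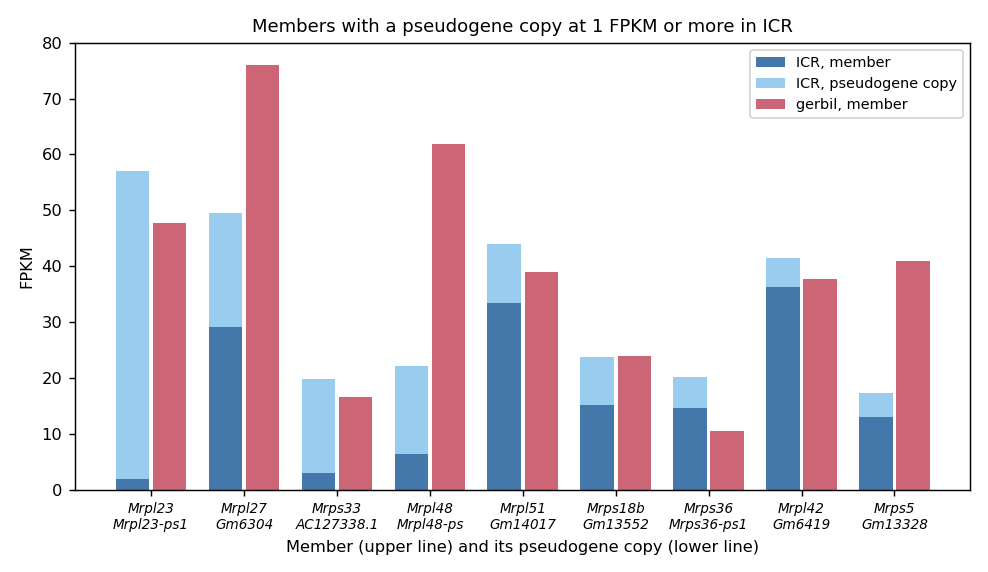
FPKM (linear axis from 0) of the 9 members with a pseudogene copy at 1 FPKM or more in ICR, with the copy stacked on the member in ICR beside the gerbil value of the member. For Mrpl23, Mrps33 and Mrpl48 the copy makes up most of the ICR column. The summed columns of Mrpl23 and Mrps33, 57.1 and 19.9, stand next to gerbil columns of 47.7 and 16.6. That of Mrpl48, 22.1, stands next to a gerbil column of 61.8.

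Of large subunit proteins known from bacteria, Mrpl2, whose bacterial counterpart binds next to the catalytic centre, measured 29.9 FPKM in ICR against 31.3 in gerbil. Mrpl14 was at 51.9 and 40.1, and Mrpl3 at 13.9 and 35.9. Mrpl27, whose bacterial counterpart reaches into the catalytic centre, measured 29.1 FPKM in ICR against 75.9 in gerbil. That gerbil value was also listed for its neighbour Eme1, and a copy of Mrpl27 was expressed in ICR, so which transcripts the Mrpl27 values measure cannot be told apart.

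The stalks of the ribosome move transfer RNA and recruit translation factors. Mrpl12, the stalk protein that contacts the elongation factors, measured 62.2 FPKM in ICR against 60.95 in gerbil, the smallest difference of any member (−0.03). Mrpl10, which anchors Mrpl12, was at 35.1 and 52.6 FPKM, and Mrpl11 at the stalk base was at 9.50 and 24.8. Mrpl1, of the opposite stalk, measured 3.68 FPKM in ICR; its gerbil value was 0, with an expectation value of 5e-36. It was the only member listed at 0 in either library.

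The most abundant large subunit member in ICR was Mrpl52, a protein specific to mitochondria, at 249 FPKM in ICR and 15.2 in gerbil. That is 15.4-fold higher in ICR, at an expectation value of 6e-70. Mrpl33 followed at 117 and 65.5 FPKM, and Mrpl20, needed for early large subunit assembly in bacteria, at 103 and 91.5. Mrpl20 was the highest member in gerbil. Mrpl28 measured 64.5 FPKM in ICR against 44.4 in gerbil. Mrpl40, specific to mitochondria, was at 19.8 and 1.96 FPKM, 7.01-fold higher in ICR, with an expectation value of 9e-38.

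Other large subunit members close to equal were Mrpl15 (33.2 FPKM in ICR, 32.1 in gerbil), Mrpl42 (36.3 and 37.6) and Mrpl43 (25.5 and 23.7). Mrpl45, which in mammals binds the ribosome to the inner membrane near the tunnel exit, was at 17.6 and 48.1 FPKM.

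Mrpl48 (chr7:100545751-100608297), a large subunit protein specific to mitochondria, measured 6.44 FPKM in ICR against 61.8 in gerbil, 8.45-fold higher in gerbil. Its gerbil value was also that of Rab6a, a vesicle traffic GTPase whose gene lies on the other strand and overlaps the span of Mrpl48. Rab6a itself measured 42.3 FPKM in ICR against 61.8 in gerbil with an expectation value of 0, whereas the match of Mrpl48 stood at 5e-94. Which of the 2 genes the gerbil value measures cannot be told apart.

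In the small subunit the most abundant gene in ICR was Mrps21, at 149 FPKM in ICR and 27.5 in gerbil, 5.27-fold higher in ICR. Its match stood at 1e-102, and 3 pseudogene copies carried its gerbil value. Mrps16 was at 83.7 and 75.5 FPKM and had the highest gerbil value of the small subunit. Both have bacterial counterparts that bind the ribosomal RNA of the small subunit. Mrps23 was at 50.7 and 53.6 FPKM, and Mrps15 at 38.4 and 20.4.

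In the head of the small subunit, which carries the transfer RNA path, Mrps10 (uS10m) measured 7.05 FPKM in ICR against 36.6 in gerbil, 4.67-fold higher in gerbil. Its expectation value was 0, and alone among the 5 members past 4-fold in gerbil it had a gerbil value that no other gene carried. GENCODE M21 holds a processed pseudogene of Mrps10, 97.9% identical over 573 bases, whose level was not analysed here. Of other proteins of the head, Mrps14 was at 26.1 and 27.5 FPKM, Mrps24 at 25.0 and 34.9, Mrps7 at 23.4 and 34.0, and Mrps9 at 15.9 and 18.0.

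On the platform, Mrps11 (uS11m) measured 23.4 FPKM in ICR against 4.20 in gerbil, 4.69-fold higher in ICR. It was the only one of the 8 members 4-fold higher in ICR with an expectation value of 0, but 7 other genes carried its gerbil value. Mrps11 and Mrpl46 lie head to head on chromosome 7 with overlapping spans, and Mrpl46 was at 15.4 and 13.7 FPKM. Mrps6, which lies on the platform in bacteria, measured 14.7 FPKM in ICR against 55.3 in gerbil. Mrps5, at the entry of messenger RNA in bacteria, was at 13.0 and 40.9, and Mrps17 was at 28.9 and 47.0.

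Mrps22, a small subunit protein specific to mitochondria, measured 10.4 FPKM in ICR against 1.44 in gerbil, 4.66-fold higher in ICR, at an expectation value of 9e-17. Mrps33 is described above with its copy. Mrps31 was low in both libraries, at 6.10 and 12.6 FPKM, and Mrps27, a pentatricopeptide repeat protein, was at 14.4 and 20.7.

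The 3 paralogues of bacterial S18 occupy different places in the mammalian ribosome. Mrps18c measured 41.6 FPKM in ICR against 35.1 in gerbil, and Mrps18b at 15.1 and 23.9. Mrps18a, which sits in the large subunit in structures despite its symbol, was at 31.7 and 2.42 FPKM, 9.57-fold higher in ICR. Its match was among the weakest, at 5e-17, while those of Mrps18b and Mrps18c were at 0.

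Grouping by place in the structure moved Mrps18a and Mrps30 to the large subunit and left out Mrps36, now counted with the oxoglutarate dehydrogenase complex. Large subunit genes with a bacterial counterpart had a median of 30.2 FPKM in ICR (31 genes) and 25.3 in gerbil (29 genes). Those specific to mitochondria were lower, at 17.8 (19 genes) and 19.4 (17 genes). In the small subunit the medians were 25.0 (17 genes) and 34.0 (15 genes) with a bacterial counterpart, and 19.6 and 17.0 (9 genes) for those specific to mitochondria. Bacterial-type genes thus had the higher median in both subunits and both libraries, with ranges that overlapped widely. The median differences were −0.05, 0.12, 0.29 and 0.28 in that order of the groups.

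The 6 members with no gerbil match were not low in ICR. Mrpl54 was at 82.5 FPKM, Mrpl18 at 43.8 and Mrpl30 at 35.0 in the large subunit. Mrps28 was at 36.1, Mrps12, the counterpart of a bacterial protein of the decoding centre, at 30.6, and Mrps30 at 14.7. All 6 symbols are annotated in the gerbil assembly Bangor_MerUng_6.1, in which 76 of the 77 members were found by symbol. Among protein-coding genes at 1 FPKM or more in ICR, 93.1% had a gerbil value, against 92.2% of the members.

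Matches of the members were weaker than those of other coding genes. Of the 71 matched members 50 (70.4%) had an expectation value of 0, against 87.6% of matched protein-coding genes at 1 FPKM or more in ICR. The number was 30 of 45 in the large and 20 of 26 in the small subunit. The 50 had a median coding length of 690 bases and the 21 with a larger expectation value 384. Among genes at 10 FPKM or more in ICR with at most 400 coding bases, 57.8% of matched protein-coding genes and 2 of 12 members had an expectation value of 0. Above 400 bases the numbers were 92.0% and 39 of 47.

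Among the members, match strength moved with the difference. The 50 members at an expectation value of 0 had a median difference of 0.17, and 72.0% lay within 2-fold. The other 21 had a median of −0.74, and 38.1% lay within 2-fold. Of the 8 members 4-fold higher in ICR, 7 were among these 21. Across all measured protein-coding symbols the medians ran the other way, at 0.21 for the 11165 matched at 0 and 1.09 for the 2919 matched above 0. The median ICR level of these 2919 was only 0.79 FPKM. At a mean of 10 FPKM or more over both libraries, the coding medians were 0.07 for matches at 0 and −0.07 for those above 0. The members had the same direction there, at 0.14 and −0.54. Weak matches of coding symbols at that level were more often past 4-fold in both directions. Of coding symbols matched at 0 there, 7.90% were 4-fold higher in ICR and 7.21% in gerbil, and of those matched above 0, 31.2% and 34.0%. Among members at that level, 1 and 3 of the 48 matched at 0 and 5 and 1 of the 19 matched above 0 were past 4-fold in ICR and gerbil. Whether the weak matches set these differences was not tested.

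**Figure D3:**
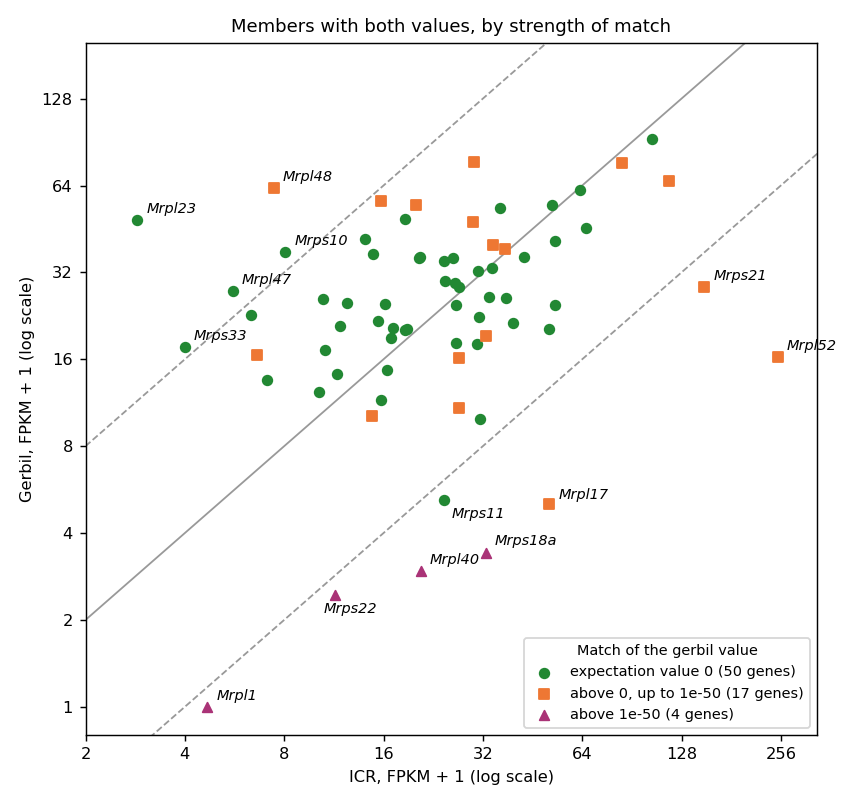
Gerbil against ICR level (FPKM + 1, both axes log) for the 71 members with both values, marked by the expectation value of the gerbil match; the solid line is equality and the dashed lines are 4-fold. The 4 members with the weakest matches, above 1e-50, all lie below the lower dashed line, and the 50 members matched at 0 gather about the solid line.

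Gerbil values were also shared. Only 13 of 71 members had a gerbil value listed for no other gene, 6 large (Mrpl2, Mrpl3, Mrpl10, Mrpl28, Mrpl33 and Mrpl44) and 7 small (Mrps6, Mrps10, Mrps14, Mrps15, Mrps16, Mrps23 and Mrps24). Their median difference was 0.08, 10 of the 13 lay within 2-fold, and Mrps10 alone was past 4-fold. Shared values were held by 81.7% of matched members, against 85.0% of matched protein-coding genes at 1 FPKM or more in ICR. With both limited to 10 FPKM or more in ICR the order reversed, at 79.7% of matched members and 74.1% of matched protein-coding genes. No 2 members carried the same gerbil value.

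Of the other members, 7 shared their value with a neighbouring gene, 16 with a related sequence but no neighbour, and 34 with genes of no detected relation. Mrpl27 and Mrps18b, counted with the neighbours, also shared theirs with pseudogene copies. The 7 neighbours were Eme1 for Mrpl27, Rab6a for Mrpl48, Syvn1 for Mrpl49, Ccdc142 for Mrpl53, Gm16279 for Mrps18b, 6430562O15Rik for Mrps27 and Nme3 for Mrps34. Values have 2 decimals, so low ones also coincide by rounding. In ICR 33 members overlapped the span of another gene, and whether counting used strand is not given in the sources used here.

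The order of the members was only loosely shared between libraries. Spearman's rho between ICR and gerbil FPKM was 0.29 across the 71 members and 0.35 across the 50 matched at 0, against 0.60 across 14084 protein-coding symbols, which span a far wider range of levels. Shorter members tended to be higher in ICR (rho −0.39 between coding length and FPKM, 77 genes) and less so in gerbil (−0.13, 71 genes). These are descriptions across genes of the same 2 libraries, and genes are not independent replicates.

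The rest of the mitochondrial translation machinery was read from lists of genes by function. The counts by direction stand beside 8399 of 14084 measured protein-coding symbols, and 14146 of all 20089 measured symbols, higher in gerbil. Of 7 genes with other symbols, mitoribosomal proteins and the insertase Oxa1l, 4 were higher in gerbil and 3 in ICR, with a median difference of 0.00. Dap3, a GTP-binding protein of the small subunit, measured 39.9 FPKM in ICR against 38.8 in gerbil. Oxa1l, the inner membrane insertase that binds the ribosome, was at 13.3 and 48.7. Aurkaip1, a small subunit protein, was past 4-fold, at 67.0 and 14.2.

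Of 12 translation factors 9 were higher in gerbil, with a median difference of 0.59. Tufm, the elongation factor that delivers transfer RNA, measured 8.53 FPKM in ICR against 96.8 in gerbil. Gfm1, the translocation factor, was at 16.8 and 26.7. Mrrf, the recycling factor, was at 11.8 and 1.53, with an expectation value of 9e-21. The 16 aminoacyl-tRNA synthetases had a median of 0.38, with 11 higher in gerbil, and Lars2 alone was past 4-fold, at 49.5 FPKM in ICR and 7.34 in gerbil.

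Among 19 genes of ribosome assembly and rRNA modification, 8 were higher in gerbil and 11 in ICR, with a median of −0.19. Gtpbp10, a GTPase of large subunit assembly, measured 0.60 FPKM in ICR against 12.9 in gerbil. Rnmtl1, an rRNA methyltransferase, was at 4.72 and 32.8, and Ngrn at 18.5 and 3.84. Rbfa, the small subunit maturation factor, was at 35.5 and 8.20.

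The 16 genes of mitochondrial transcription, the nucleoid and mRNA stability had a median difference of 1.20, and 15 of them were higher in gerbil. Only 6 (37.5%) lay within 2-fold. Slirp and Lrpprc, partners that stabilise mitochondrial messenger RNA, were at 21.4 and 9.09 FPKM in ICR and at 115 and 48.6 in gerbil. Ssbp1, which binds single-stranded mitochondrial DNA, was at 9.85 and 44.5, and Hsd17b10, a subunit of mitochondrial RNase P, at 31.6 and 67.8. Tefm, the elongation factor of mitochondrial transcription, was the exception, at 4.14 and 2.79. Lowering gerbil by 0.87, the median of all measured symbols, would leave this median above 0 and those of the other lists of mitochondrial translation below it. Lowering it by the 0.30 of measured protein-coding symbols would also leave the medians of translation factors (0.59) and synthetases (0.38) above 0.

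The 75 measured nuclear subunits of oxidative phosphorylation had a median difference of 0.03, with 38 higher in gerbil, 37 in ICR and 73.3% within 2-fold. Over these 75 genes the median level was 78.3 FPKM in ICR and 79.4 in gerbil, above the 23.6 and 24.0 of the 71 mitochondrial ribosomal proteins with both values. Cytosolic ribosomal proteins stood apart, with a median of 3.12 over 80 genes and 45 of them 4-fold higher in gerbil, against 5 in ICR. Copies of the cytosolic genes were not analysed here.

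**Figure D4:**
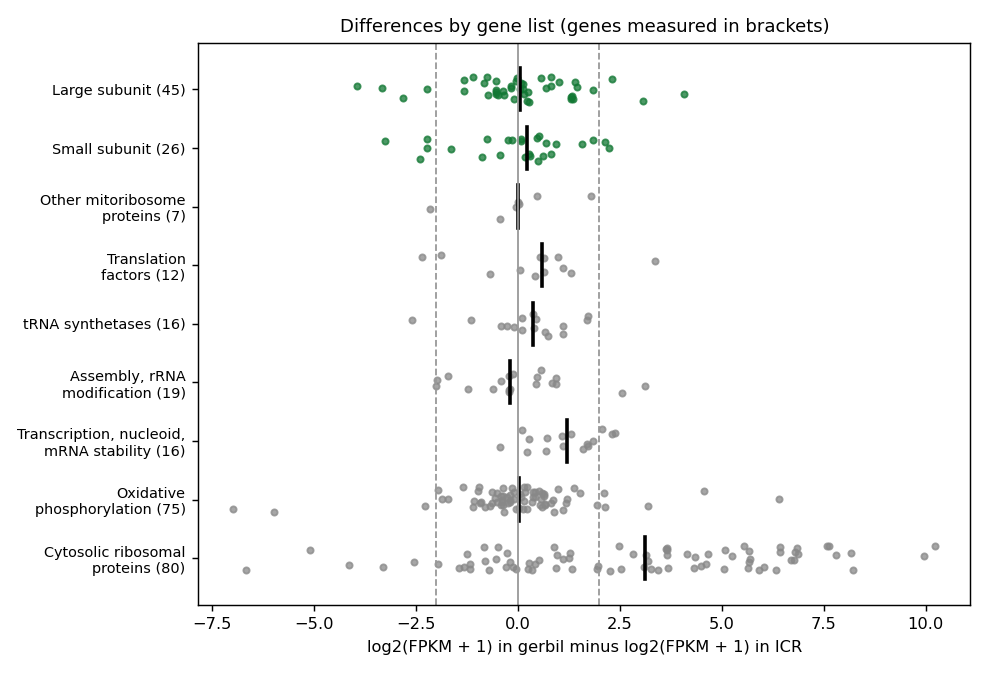
Difference of each measured gene (gerbil less ICR, log2(FPKM + 1) scale, 1 point per gene) by list, with the median as a black bar and dashed lines at 4-fold. The medians of both mitochondrial ribosome subunits and of oxidative phosphorylation lie near 0 as deposited (below 0 with gerbil lowered by the all-gene median of 0.87), and cytosolic ribosomal proteins are centred at 3.12.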

How the data were processed

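Samples were grouped by the species in their titles, 1 library each. The deposited table gave FPKM for both libraries, per the file headers, and for each gerbil FPKM an expectation value. Cufflinks 2.2.1, RSEM 1.2.19, STAR 2.4.0b, CASAVA and the build GRCm38.p2 appear in the submitters' processing notes. The sources used here do not give which of them served which library, nor the assembler or the search program. Neither set of values gives depth.

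Differences used a pseudocount of 1. A symbol was measured with both values and at least 1 FPKM in 1 library or more, and a repeated symbol took its entry of highest mean. With 1 library per group no test was possible, and a 4-fold size rule was used. Biotypes and coding lengths (the design had named protein lengths) came from GENCODE M21, in which 40629 table genes were found. Copies were found with blastn 2.17.0 (at least 100 bases, expectation value of 1e-10 or less), and neighbours lay within 5000 bases. Promoter motifs and protein sequences were not analysed here. Scripts ran on Python 3.11.15 with scipy 1.17.1, pandas 2.3.3 and numpy 2.4.6, and the difference was tested on simulated data.

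Members, lists and tests were chosen with earlier results of these data known. Named members were those past 4-fold, at 0 or without a gerbil value, the 5 highest and 3 lowest in ICR, the 5 highest in gerbil and the 5 nearest to equal of each subunit, and the Mrps18 paralogues; from each list the 2 most abundant and the most different genes were eligible. Others, grouped by role or copy, were named after their values were seen. Alternatives were other pseudocounts, floors, scalings, size rules, subunit assignments and match limits. Adding copies to ICR, leaving out values shared with a neighbour, a combined match filter and the split by mean level were added after the data were seen.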

Additional observations from a re-analysis of the deposited data

How the results depend on the processing

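No paired analysis was possible because there was only 1 gerbil and 1 ICR library, and for the same reason no library could be left out. Of 187 values over all alternatives, 140 stayed within the 95% interval of the main median or, for counts, within 1.5 times. The 140 include the values with no floor and with repeated entries summed, which could not differ from the main ones. Every member was above 1 FPKM in ICR, and no member symbol was repeated. For differences these are the intervals given above for the subunits, and −0.16 to 0.28 over all members. Scaling moved the medians most. Lowering gerbil by the median of all measured symbols gave −0.79 for all members, −0.82 for the large and −0.64 for the small subunit, with 2 members 4-fold higher in gerbil and 0 in the small subunit. A trimmed mean gave −0.30, again with 2 and 0; scaling to oxidative phosphorylation subunits moved no value past these limits.

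With a pseudocount of 5, 2 members were 4-fold higher in gerbil (0 small) and 4 in ICR (2 large, 2 small). A 2-fold rule gave 15 in gerbil (11 large, 4 small) and 7 large members in ICR. An 8-fold rule gave 2 in gerbil (0 small) and 3 in ICR (2 large, 1 small).

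With matches at 1e-50 or less, 4 members were 4-fold higher in ICR (2 large, 2 small), and with matches at 0, 1 (0 large, 1 small). Among the 13 members with a gerbil value of their own, 1 was higher in gerbil (0 large, 1 small) and 0 in ICR (0 large, 0 small). The large subunit then had a median difference of 0.32 and median levels of 32.5 FPKM in ICR against 40.2 in gerbil; the small subunit median was 36.6 in gerbil; these rest on 6 and 7 genes.

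Added after the data were seen, copies summed into ICR left 2 members higher in gerbil (1 large, 1 small). Requiring a match at 0, no neighbour's value and copies under 10% of the gene in ICR kept 42 members, 2 higher in gerbil (1 large, 1 small) and 1 in ICR (0 large, 1 small). The filters on match strength, shared values and copies lose calls only by dropping members, since the difference of a kept member stays the same. Summing copies into ICR changes the differences themselves. No cause of the differences was tested. Unknown depth limits the low values most.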
